A study of Mus musculus with 24 samples.

Results

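Neurotrophins are secreted growth factors of the nervous system, and 7 genes of this system were followed across prefrontal cortex (PFC) and nucleus accumbens (NAc) of mice under chronic jet lag (CJL). They are the ligands Bdnf and Ntf3, the receptors Ntrk2, Ntrk3 and Ngfr, the neurotrophin-inducible secretory protein Vgf, and Nrn1 (neuritin), a membrane-anchored protein of growing neurites. The rows were found by gene symbol in the table of each library, as 7 of 48526 genes listed, and each symbol had 1 row. Poly(A) RNA of 24 libraries was sequenced, 3 per group, from 12 male C57BL/6J mice that each gave both regions. The mice were 8 weeks old on purchase and were entrained to 12 hours of light and 12 hours of darkness for 2 weeks. Ctrl mice stayed on that schedule, and for CJL mice lights on and off were moved 6 hours earlier every 2 days. Tissue was taken on Day 10 at ZT1, 1 hour after lights on, or at ZT13, 1 hour after lights off, which gives the 8 groups PFC or NAc, ZT1 or ZT13, Ctrl or CJL. The regions were cut by hand from coronal slices of wild-type brain, so every library holds a mixture of neurons, glia and vessels.

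Each neurotrophin is made as a longer precursor, cut by proteases to its mature form, and released from nerve cells in part when they are active. Mature BDNF binds TrkB, the product of Ntrk2, neurotrophin-3, the product of Ntf3, binds chiefly TrkC, the product of Ntrk3, and p75, the product of Ngfr, binds the precursors as well as the mature forms. Trk receptors signal to survival, growth and synaptic strength through adaptors and kinases, while p75 can also favour pruning and cell death. In the forebrain, Bdnf RNA is made mainly by excitatory neurons, the truncated form of TrkB is abundant in astrocytes, p75 marks cholinergic neurons of the basal forebrain, and both Vgf and Nrn1 are induced by neuronal activity and by BDNF.

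Values are FPKM (fragments per kilobase of transcript, scaled to the mapped fragments of a library), which are divided by transcript length, so levels may be set side by side between genes. Differences were tested with limma on log2(FPKM + 0.1), and p-values were adjusted by Benjamini-Hochberg over all genes that reached 1 FPKM in at least 3 libraries of the fit. In PFC, 5 of the 7 genes passed that filter, without Ntf3 and Ngfr, and in NAc 6 of 7 passed, without Ntf3. In the fit of both regions Ngfr passed only through NAc, where it is high. A gene is called at an adjusted p under 0.05. FPKM are summed over all transcripts of a gene, so full-length and truncated Ntrk2, or Bdnf transcripts from its different promoters, cannot be told apart.

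The RNA of the regions carried the markers of their labels. The summed FPKM of 9 cortical projection neuron markers was 409 to 651 in PFC and 41.3 to 198 in NAc, and that of 10 striatal projection neuron markers was 143 to 309 in PFC and 589 to 1665 in NAc. In 4 of 12 PFC libraries and 3 of 12 NAc libraries, markers of a neighbouring tissue stood over 1.5 log2 units above the median of the region. In PFC these were olfactory bulb neuron markers in ZT1 Ctrl replicate 1 and ZT1 CJL replicate 2, and choroid plexus markers in ZT13 Ctrl replicate 1 and ZT13 CJL replicate 1. In NAc they were choroid plexus markers in ZT13 Ctrl replicate 3, and thalamus and hypothalamus markers in ZT1 CJL replicate 2 and ZT13 CJL replicate 3. The depth of a library cannot be read from FPKM, and the read totals of the study were not used, so precision rests on the spread between libraries. In the sequencing statistics of the study every NAc library has a lower share of high-quality bases than every PFC library, and region and sequencing quality cannot be told apart. Within PFC every ZT1 Ctrl library has a higher share of high-quality bases, a lower GC content and a lower share of reads kept than every other PFC library. Time or CJL differences against this group and these traits cannot be told apart either.

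Levels of the 7 genes spanned a wide range. In PFC the median over 12 libraries was highest for Nrn1 at 147 FPKM, followed by Ntrk2 at 97.2, Vgf at 89.0, Ntrk3 at 23.9, Bdnf at 7.75, Ntf3 at 0.499 and Ngfr at 0.330. In NAc the order was Ntrk2 at 110 (109.6), Vgf at 69.5, Nrn1 at 30.9, Ntrk3 at 25.2, Ngfr at 6.20, Bdnf at 2.11 and Ntf3 at 0.462. Ntrk2 RNA, full-length and truncated forms together, thus stood far above Bdnf RNA in both regions. Nrn1 was highest and Ngfr lowest in PFC but not in NAc, and only Ntrk3 kept its place in the order.

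**Figure D1:**
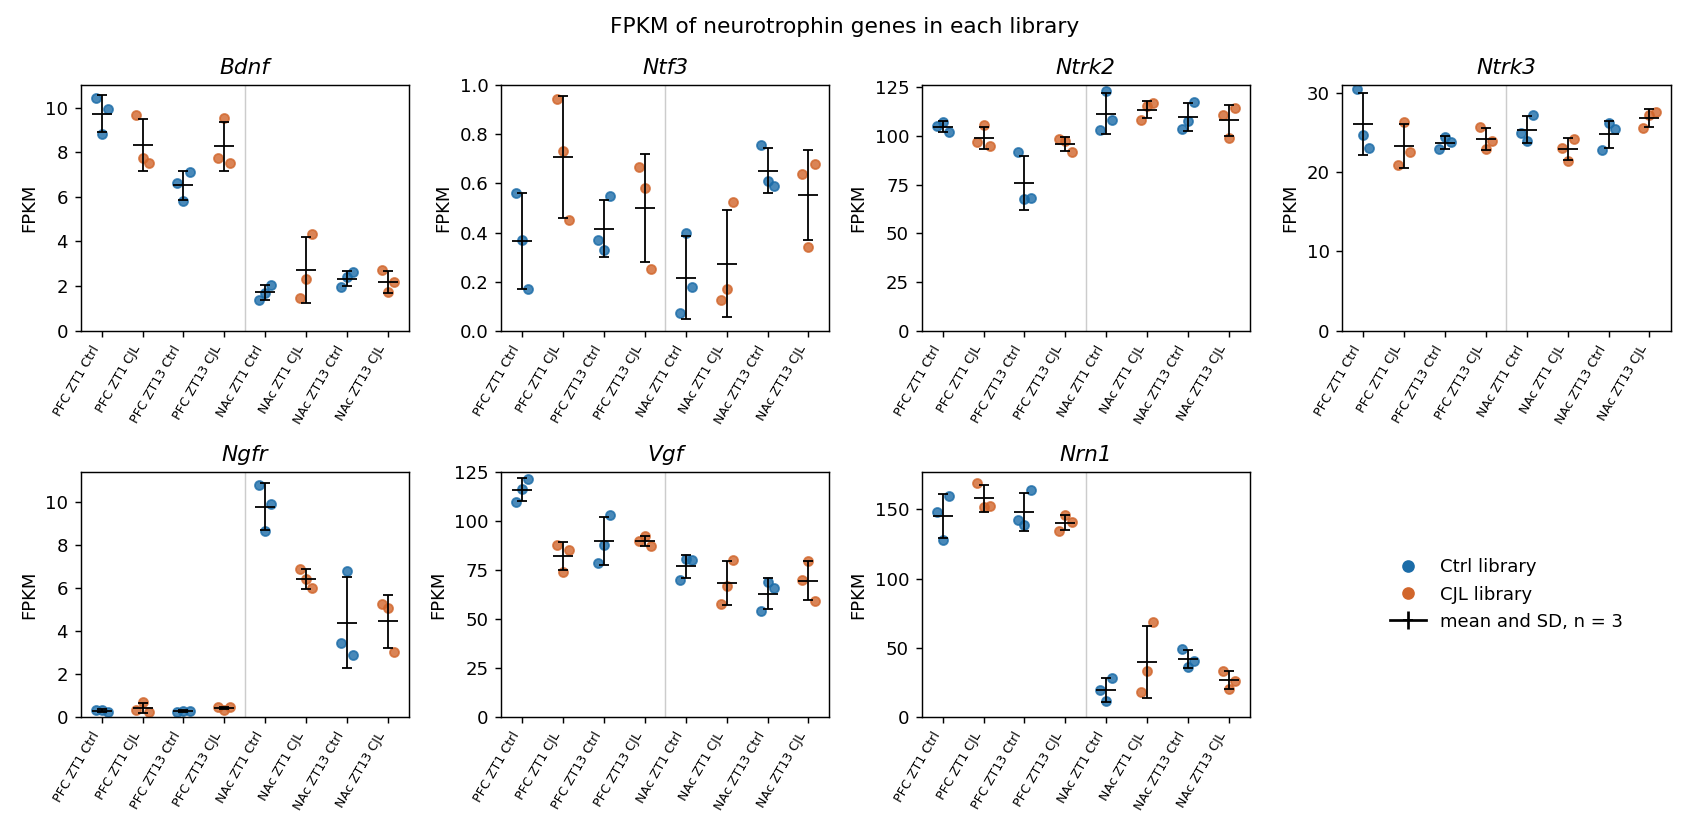
FPKM (vertical axis, starting at 0) of the 7 genes in each of the 24 libraries, by group of region, time and lighting; points are libraries and black bars give mean and SD of 3. Ntrk2 is lowest in PFC of Ctrl mice at ZT13, Bdnf and Nrn1 are high in PFC and low in NAc, Ngfr is below 1 in every PFC library and 2.92 to 10.8 in NAc, and Vgf is highest in PFC of Ctrl mice at ZT1.

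BDNF is the neurotrophin most tied to learning and to plasticity of cortical synapses. Bdnf lies on chromosome 2 from 109674700 to 109727007 (mm10, ENSMUSG00000048482). Its 7 promoter windows in the RefSeq table (GRCm38.p6, the same build) run from 250 bases before to 50 bases after a transcript start. They were searched, because Bdnf answers to neuronal activity, for the cyclic AMP response element TGACGTCA, for its first part TGACG, which lies inside the full element, and for the E-box CACGTG, bound by clock factors, on both strands. The window shown is the 1 of 7 Bdnf windows with a match, to TGACG on the reverse strand. It begins 35 bases before the start of the transcript and is in capitals.
Bdnf, chr2:109692186-109692485, + strand: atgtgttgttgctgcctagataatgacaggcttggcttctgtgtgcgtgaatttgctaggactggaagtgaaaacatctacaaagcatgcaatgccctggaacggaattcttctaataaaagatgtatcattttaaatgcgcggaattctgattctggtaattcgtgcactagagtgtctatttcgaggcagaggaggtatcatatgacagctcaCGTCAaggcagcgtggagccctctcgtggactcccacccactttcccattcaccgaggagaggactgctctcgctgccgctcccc
Of all 32851 windows of this length, 20.8% hold TGACG, 1.79% the full element and 7.15% the E-box. None of the 11 windows of Bdnf, Ntf3, Ntrk2 and Ngfr holds an exact copy of the full element, and 1 of them, of Ntf3, holds the E-box. Only exact copies were searched, and the letters at the Bdnf match, TCACGTCA, differ from the full element in 1 letter. A match describes these letters only.

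In PFC of Ctrl mice, Bdnf was lower at ZT13 than at ZT1. The ZT1 Ctrl libraries held 10.4, 8.81 and 9.92 FPKM and the ZT13 Ctrl libraries 6.60, 5.83 and 7.13 FPKM. Every ZT13 library was below every ZT1 library. The means were 9.72 ± 0.829 and 6.52 ± 0.655 FPKM (SD, n = 3 each), a fall of -0.57 on the log2 scale (limma, SE 0.126, adjusted p = 0.0182). Of the 5 genes tested here 3 were called, all lower and without overlap. Of all 14914 genes 12.3% were called, 3.54% as lower, and 33.4% had groups that do not overlap. Fewer cells that express a gene and less of its RNA per cell cannot be told apart in these libraries. The Bdnf difference kept its direction without any 1 library, but was not called without ZT13 Ctrl replicate 2 (-0.49, limma adjusted p = 0.0736) or without the high-marker libraries named above (-0.53, adjusted p = 0.0779). With the groups of the comparison fitted alone, the count of 3 called members became 1.

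In PFC of CJL mice the difference between the times was not seen. Bdnf held 9.67, 7.76 and 7.52 FPKM at ZT1 and 7.74, 9.54 and 7.51 FPKM at ZT13. The groups overlapped almost fully, with a log2 fold change of -0.01 and a 95% interval of -0.29 to 0.27. At ZT13 the CJL libraries were all above the Ctrl libraries, by 0.33 on the log2 scale (SE 0.126), which did not pass adjustment over all genes (limma adjusted p = 0.343). At this time 17.9% of all genes had groups that do not overlap and 0.0201% were called. In the same comparison the olfactory bulb neuron sum was higher in CJL without overlap (8.48 to 22.7 FPKM against 3.88 to 5.66). So was the mean log2 level of endothelium and pericyte markers (3.69 to 3.81 against 3.51 to 3.65). The part of these tissues in the ZT13 differences of Bdnf and Ntrk2 was not tested. The interaction, the CJL effect at ZT13 minus that at ZT1, was 0.56 on the log2 scale (limma adjusted p = 0.141), so a different time effect under CJL was not called.

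Ordered by mean, Bdnf stood highest in PFC ZT1 Ctrl, then ZT1 CJL at 8.32, ZT13 CJL at 8.26 and ZT13 Ctrl, then NAc ZT1 CJL at 2.71, ZT13 Ctrl at 2.33, ZT13 CJL at 2.19 and ZT1 Ctrl at 1.71 FPKM. The 3 highest PFC groups overlapped with their neighbours in this order, PFC ZT13 Ctrl was below ZT13 CJL without overlap, and the 4 NAc groups overlapped with each other.

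In NAc, Bdnf was low and variable. ZT1 Ctrl held 1.37, 1.70 and 2.06 FPKM, ZT1 CJL 1.45, 2.33 and 4.35, ZT13 Ctrl 1.96, 2.40 and 2.63, and ZT13 CJL 2.71, 1.71 and 2.16. A single library, ZT1 CJL replicate 3 at 4.35 FPKM, stood above the rest. No NAc comparison called Bdnf. CJL against Ctrl at ZT1 gave a log2 fold change of 0.52 with a 95% interval of -0.20 to 1.24, and 0.12 without that library. The same library also had 140 (140.3) summed FPKM of cortical projection neuron markers against 41.3 and 56.9 in the other ZT1 CJL libraries, and 433 (432.9) of thalamus and hypothalamus markers against 83.5 and 440 (440.1). Its striatal sum of 589 (588.5) was the lowest of all NAc libraries. The part of neighbouring tissue in the Bdnf level of NAc was not tested.

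Neurotrophin-3 acts in the development of sensory and cortical circuits and is scarce in adult forebrain. Ntf3 (chromosome 6 from 126101412 to 126166910, ENSMUSG00000049107) was at 0.168 to 0.944 FPKM in PFC and 0.0713 to 0.757 FPKM in NAc, so no library reached 1 FPKM. In NAc of Ctrl mice it held 0.0713, 0.400 and 0.178 FPKM at ZT1 and 0.757, 0.612 and 0.588 FPKM at ZT13. The ZT13 libraries were all higher, and without the filter the difference was 1.38 on the log2 scale (SE 0.475, limma adjusted p = 0.507). That difference lies at levels below 1 FPKM and was not called, and the number of fragments behind it is not given.

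Ntrk2 encodes TrkB, whose full-length form carries the BDNF signal in neurons. It lies on chromosome 13 from 58806596 to 59133970 (ENSMUSG00000055254), and annotated antisense genes lie within it. Its window is shown because Ntrk2 was called together with its ligand, and it holds none of the 3 motifs, so no letter is in capitals.
Ntrk2, chr13:58806319-58806618, + strand: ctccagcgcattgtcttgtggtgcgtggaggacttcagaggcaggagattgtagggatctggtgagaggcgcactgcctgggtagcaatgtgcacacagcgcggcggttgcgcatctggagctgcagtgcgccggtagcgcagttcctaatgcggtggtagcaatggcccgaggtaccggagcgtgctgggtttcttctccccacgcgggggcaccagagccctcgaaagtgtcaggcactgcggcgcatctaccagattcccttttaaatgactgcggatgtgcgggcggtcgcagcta

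In PFC of Ctrl mice Ntrk2 was lower at ZT13, as Bdnf was. The ZT1 Ctrl libraries held 105, 107 and 102 FPKM and the ZT13 Ctrl libraries 92.1, 67.7 and 68.0 FPKM. The groups did not overlap, and ZT13 Ctrl replicates 2 and 3 were the lowest of all 24 libraries. In limma the difference was -0.48 on the log2 scale (SE 0.103, adjusted p = 0.0162), with means of 105 (104.9) ± 2.63 and 75.9 ± 14.0 FPKM (SD, n = 3 each). The call was lost without ZT13 Ctrl replicate 2 (-0.41, limma adjusted p = 0.0675), ZT13 Ctrl replicate 3 (-0.41, adjusted p = 0.0682) or ZT1 Ctrl replicate 2 (-0.46, adjusted p = 0.0518).

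The same ZT13 Ctrl libraries, replicates 2 and 3, had the lowest level of astrocyte markers in PFC. The summed FPKM of 9 astrocyte markers was 617, 502 and 444 in ZT13 Ctrl replicates 1 to 3 and 572 to 652 in the other 9 PFC libraries. None of the 9 markers was called between the times in Ctrl mice, and 2 were lower at an unadjusted P under 0.05. Their median log2 difference was -0.19 beside 0.06 over all genes. Of the lists of neighbouring tissue, the choroid plexus sum was 21.7 to 615 FPKM in ZT13 Ctrl against 2.08 to 12.0 in ZT1 Ctrl, and the olfactory bulb neuron sum 3.88 to 5.66 against 8.28 to 40.5, both without overlap. The sums of thalamus and hypothalamus (15.3 to 19.4 against 13.2 to 14.7) and of olfactory ensheathing glia (137 to 154 against 121 to 133) were also higher at ZT13 without overlap. Mean log2 levels were apart for thalamus and hypothalamus, at -0.11 to 0.26 against -0.56 to -0.17. For ensheathing glia they overlapped, at 1.71 to 2.29 against 1.92 to 2.30. Of 8 endothelium and pericyte markers 3 were called, all lower, with a median of -0.26. Over the 12 PFC libraries, which share these markers and the groups, log2 Ntrk2 and the mean log2 marker level had a Pearson r of 0.70 and a Spearman rho of 0.31, and r was -0.28 without the 2 libraries farthest from the marker median and 0.54 for deviations from the group means. The relation over all 12 libraries rests on those 2. The part of RNA from astrocytes, vessels and neighbouring tissue in the differences of Ntrk2, Bdnf and Vgf was not tested.

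Under CJL, Ntrk2 in PFC held 96.8, 106 and 94.8 FPKM at ZT1 and 98.4, 97.5 and 91.8 FPKM at ZT13. These groups overlapped, with a log2 fold change of -0.05 and a 95% interval of -0.27 to 0.18. At ZT13, CJL against Ctrl gave 0.35 (SE 0.103, limma adjusted p = 0.301), and the groups overlapped only through ZT13 Ctrl replicate 1 at 92.1 FPKM. Without that library, which also carried choroid plexus markers, the difference was 0.50 and passed the test (limma adjusted p = 0.00893). The interaction was 0.44 (limma adjusted p = 0.153) with all libraries and 0.58 (adjusted p = 0.0128) without it, so this library decides both. With it left out, ZT13 Ctrl replicates 2 and 3 remain, which have the lowest astrocyte sums in PFC (502 and 444 FPKM). Their choroid plexus sums were 102 and 21.7 FPKM, beside 698, 4.72 and 4.82 in ZT13 CJL replicates 1 to 3.

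In NAc, Ntrk2 was at 99.0 to 123 FPKM and none of the comparisons within the region moved it. The group means ran from 108 (108.0) in ZT13 CJL to 114 (113.7) in ZT1 CJL, all 4 overlapping, and the 95% interval of CJL against Ctrl was -0.17 to 0.23 at ZT1 and -0.22 to 0.17 at ZT13.

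Ntrk3 (chromosome 7 from 78175959 to 78738012, ENSMUSG00000059146), which encodes TrkC, had no call in any comparison. It ranged from 21.0 to 30.5 FPKM in PFC and from 21.5 to 27.7 FPKM in NAc, and all 8 group means lay between 22.9 and 26.8 FPKM. In PFC none of the comparisons reached an unadjusted P under 0.05. In NAc of CJL mice it held 23.0, 21.5 and 24.2 FPKM at ZT1 and 25.6, 27.3 and 27.7 FPKM at ZT13. The ZT13 libraries were all higher, by 0.23 on the log2 scale (SE 0.0861), which did not pass adjustment (limma adjusted p = 0.938). Groups did not overlap for 10.9% of all genes in this comparison.

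Ngfr encodes p75, which in the adult forebrain is best known from cholinergic neurons. It lies on chromosome 11 from 95568818 to 95587735 (ENSMUSG00000000120). Its promoter window is shown because Ngfr stood below 1 FPKM in every PFC library and above it in every NAc library, and none of the 3 motifs is in it.
Ngfr, chr11:95587649-95587948, - strand: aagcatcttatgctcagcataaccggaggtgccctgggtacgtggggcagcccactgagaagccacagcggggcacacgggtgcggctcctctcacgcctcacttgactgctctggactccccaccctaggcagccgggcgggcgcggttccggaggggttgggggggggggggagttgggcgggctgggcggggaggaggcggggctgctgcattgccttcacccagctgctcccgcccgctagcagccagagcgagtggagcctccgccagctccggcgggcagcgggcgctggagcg

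In PFC Ngfr was at 0.226 to 0.722 FPKM, below 1 in every library. In NAc ZT1 Ctrl held 10.8, 8.65 and 9.90 FPKM of it, ZT1 CJL 6.91, 6.41 and 5.98, ZT13 Ctrl 3.45, 6.81 and 2.92, and ZT13 CJL 5.25, 5.09 and 3.03. ZT1 Ctrl stood above all other NAc groups without overlap. ZT1 CJL, ZT13 CJL and ZT13 Ctrl followed in that order of means. ZT13 Ctrl replicate 2, at 6.81 FPKM, reached into the range of ZT1 CJL, and both ZT13 groups overlapped each other.

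In NAc of Ctrl mice the mean fell from 9.79 ± 1.08 FPKM at ZT1 to 4.39 ± 2.11 FPKM at ZT13 (SD, n = 3 each). The log2 fold change was -1.23 (SE 0.281, 95% interval -1.85 to -0.61), which ranked 82 of 15573 genes by its P in limma. It was not called (limma adjusted p = 0.187), like 15573 of 15573 genes, of which 0% were called and 10.1% had an unadjusted P under 0.05. Ctrl groups of both times did not overlap for 16.2% of all genes. For Ngfr under CJL the ZT13 libraries were again all below the ZT1 libraries, with -0.56 (limma adjusted p = 0.944). CJL against Ctrl at ZT1 gave -0.59 (limma adjusted p = 0.664), also without overlap, where 14% of all genes did not overlap.

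Markers of cholinergic neurons stood in a similar order in NAc. The summed FPKM of 6 of them (Chat, Slc5a7, Slc18a3, Lhx8, Isl1 and Gbx2) was 55.3 to 60.8 in ZT1 Ctrl, 29.3 to 52.2 in ZT1 CJL, 32.6 to 37.9 in ZT13 Ctrl and 30.8 to 48.0 in ZT13 CJL. ZT1 Ctrl was above the other groups for these markers too. In PFC the sum was 0.791 to 4.22 FPKM, with Gbx2 at 0 in at least 1 library. Over the 12 NAc libraries the mean log2 level of these markers and log2 Ngfr had a Pearson r of 0.73 and a Spearman rho of 0.76, with r at 0.60 without the 2 libraries farthest from the marker median and 0.35 for deviations from the group means. The share of cholinergic cells in the dissected pieces was not measured, and its part in the Ngfr differences was not tested. At ZT1, where Ngfr was lower under CJL, the sums of ependyma markers (30.0 to 41.1 FPKM in CJL, 10.6 to 21.3 in Ctrl) and of thalamus and hypothalamus markers (83.5 to 440 (440.1) in CJL, 27.5 to 81.1 in Ctrl) were higher without overlap, and their part was not tested either.

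**Figure D2:**
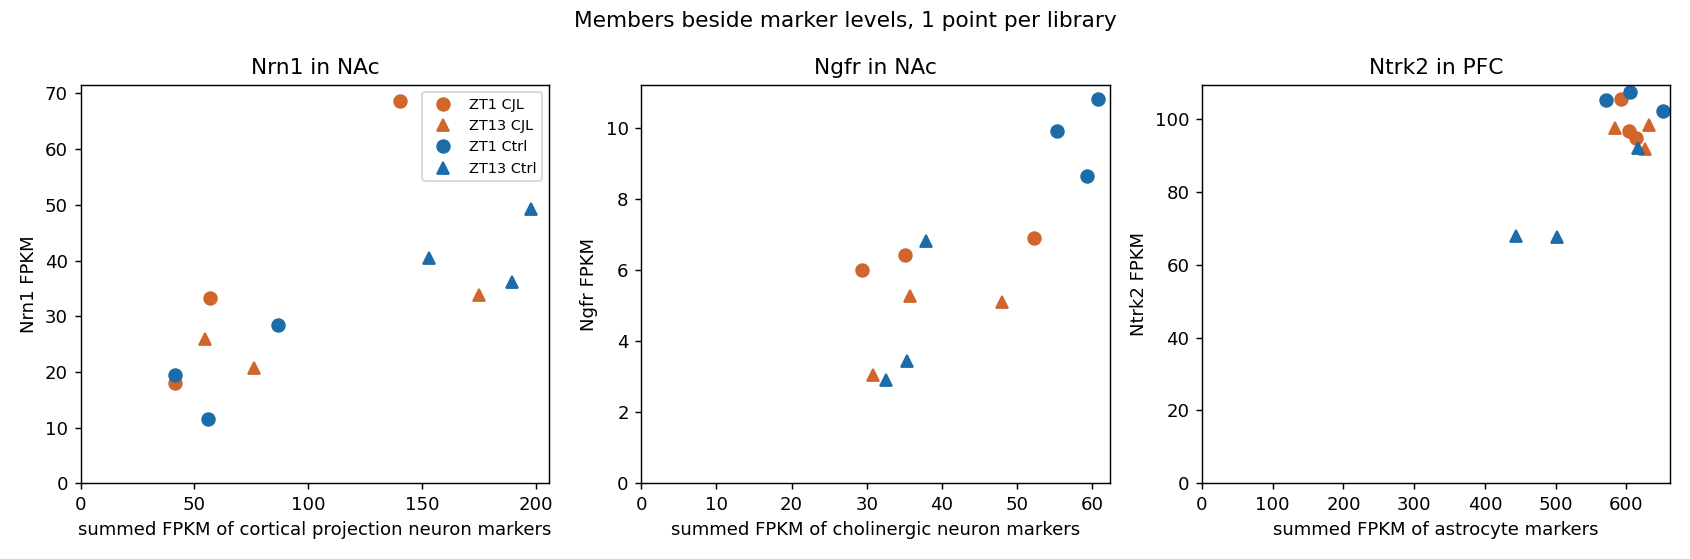
FPKM of Nrn1 and Ngfr in NAc and of Ntrk2 in PFC (vertical axes) against the summed FPKM of the cortical projection neuron, cholinergic neuron and astrocyte markers (horizontal axes), 1 point per library, with colour for lighting and shape for time. Ngfr and the cholinergic sum are both highest in the 3 ZT1 Ctrl libraries, and the low Ntrk2 libraries of PFC are those with 444 and 502 summed FPKM of astrocyte markers.

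Vgf (chromosome 5 from 137026392 to 137033351, ENSMUSG00000037428) encodes a secreted protein that is cut into active peptides and whose RNA rises with BDNF and with neuronal activity. It was the only one of the 7 genes called for CJL. In PFC at ZT1 the Ctrl libraries held 110.0, 117 and 122 FPKM and the CJL libraries 87.7, 74.4 and 85.5 FPKM. No library of one group reached the range of the other. The means were 116 (116.1) ± 5.84 and 82.5 ± 7.12 FPKM (SD, n = 3 each), which is -0.49 on the log2 scale (limma, SE 0.0943, adjusted p = 0.0316). Of the 5 genes tested here 1 was called, as lower, while 1.59% of all genes were called, 0.416% as lower, and 27.4% had groups that do not overlap. In the same comparison the summed markers of olfactory ensheathing glia (136 to 203 FPKM against 121 to 133) and of thalamus and hypothalamus (15.5 to 19.5 against 13.2 to 14.7) were higher in CJL without overlap. Their mean log2 levels, however, overlapped, at 1.68 to 2.78 in CJL against 1.92 to 2.30 in Ctrl, and at -0.44 to -0.001 against -0.56 to -0.17. The ensheathing glia sum is mostly Npy, with a PFC median of 105 FPKM (104.7) beside 137 FPKM (136.9) for the sum. The part of these tissues in the Vgf difference was not tested.

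The Vgf call at ZT1 was close to the threshold. The difference kept its direction and size, between -0.54 and -0.42, when any 1 of the 6 libraries was left out, and it was called without ZT1 Ctrl replicate 1 and lost without each of the other 5, with limma adjusted p of 0.0689 to 0.112. The call was also lost with a term for the replicate number (limma adjusted p = 0.0635), with no filter (0.0688), with both groups fitted alone (0.084) and without the high-marker libraries (0.0809).

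At ZT13 Vgf in PFC held 79.0, 87.9 and 103 FPKM in Ctrl and 90.1, 92.3 and 87.4 FPKM in CJL. The groups overlapped around the same level, with a log2 fold change of 0.01 and a 95% interval of -0.20 to 0.21. In Ctrl mice ZT13 was thus below ZT1 without overlap, by -0.37 on the log2 scale (limma, SE 0.0943, adjusted p = 0.0275), and in CJL mice the difference was 0.13 (adjusted p = 0.859). The Ctrl call was lost without ZT1 Ctrl replicate 2 or 3 or ZT13 Ctrl replicate 2, with limma adjusted p of 0.0734, 0.0791 and 0.0917. The interaction was 0.50 (SE 0.133, limma adjusted p = 0.0999) and missed the threshold. PFC ZT1 Ctrl was highest of all 8 groups and apart from the next, while the other 3 PFC groups, with means of 90.0, 89.9 and 82.5 FPKM, overlapped.

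In NAc Vgf was at 54.5 to 80.7 FPKM. It held 70.2, 80.7 and 80.5 FPKM in ZT1 Ctrl and 54.5, 69.1 and 65.9 FPKM in ZT13 Ctrl. The ZT13 libraries were all lower, as in PFC, with a log2 fold change of -0.29 (SE 0.142) that was not called (limma adjusted p = 0.522). With CJL it held 58.0, 67.1 and 80.5 FPKM at ZT1 and 70.0, 79.8 and 59.6 FPKM at ZT13, and both comparisons with Ctrl overlapped.

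Nrn1 (chromosome 13 from 36725625 to 36734477, ENSMUSG00000039114) encodes neuritin, which promotes neurite outgrowth and the upkeep of synapses, and an annotated antisense gene lies within it. In PFC it was the most abundant of the 7 genes, at 128 to 169 FPKM. The group means there were 158 (157.8) in ZT1 CJL, 148 (148.0) in ZT13 Ctrl, 145 (144.9) in ZT1 Ctrl and 140 (140.4) in ZT13 CJL, neighbours overlapping. In CJL mice, however, the ZT13 libraries (135, 146 and 141 FPKM) were all below the ZT1 libraries (169, 152 and 152 FPKM), by -0.17 on the log2 scale (limma adjusted p = 0.787). None of the PFC comparisons reached an unadjusted P under 0.05.

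In NAc Nrn1 was the most variable of the members tested, with a median CV within groups of 33.5% against 11.9% over all genes. ZT1 Ctrl held 19.5, 11.6 and 28.5 FPKM, ZT1 CJL 18.0, 33.4 and 68.7, ZT13 Ctrl 49.2, 36.2 and 40.4, and ZT13 CJL 33.8, 20.7 and 25.9. At ZT1 the CJL libraries overlapped the Ctrl libraries, with a difference of 0.89 on the log2 scale (limma adjusted p = 0.664), and of 0.40 without ZT1 CJL replicate 3. In Ctrl mice ZT13 was above ZT1 without overlap, in CJL mice the times overlapped, and at ZT13 the CJL libraries were all below the Ctrl libraries (-0.66 on the log2 scale, limma adjusted p = 0.685), where 12.9% of all genes did not overlap. The Ctrl difference was 1.15 on the log2 scale (SE 0.423, limma adjusted p = 0.386) and the interaction -1.55 (adjusted p = 0.727), neither called.

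Markers of cortical projection neurons moved with Nrn1 in NAc. Their summed FPKM was 41.3 to 86.8 in ZT1 Ctrl and 153 to 198 in ZT13 Ctrl, and 41.3 to 140 (140.3) in ZT1 CJL and 54.7 to 175 in ZT13 CJL. Over the 12 libraries log2 Nrn1 and the mean log2 marker level had a Pearson r of 0.74 and a Spearman rho of 0.79, with r at 0.72 without the 2 libraries farthest from the marker median and 0.73 for deviations from the group means. For Bdnf the same values were 0.73, 0.77, 0.52 and 0.91. These relations, like those of Ngfr and Ntrk2, were 4 picked after the values were seen, so they carry no test. How much of the NAc signal of Nrn1 and Bdnf came from cortical tissue in the piece was not tested.

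**Figure D3:**
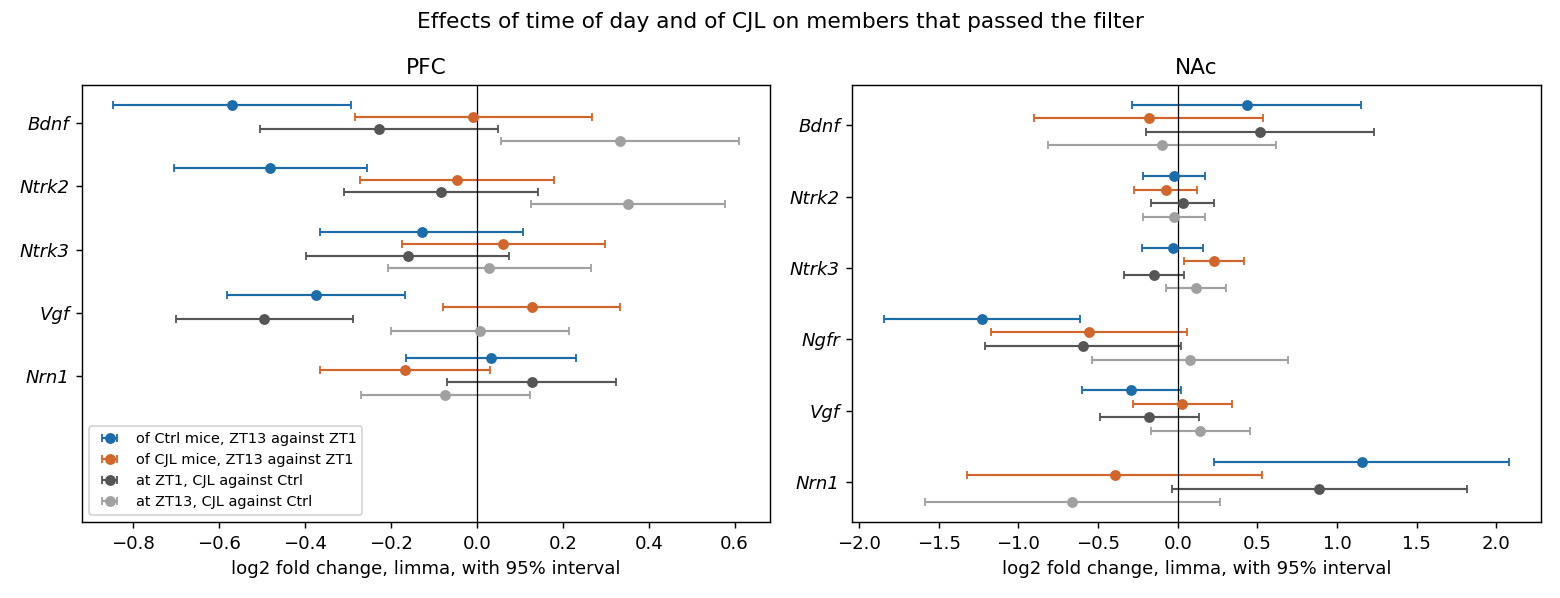
Log2 fold changes from limma (horizontal axis) with 95% intervals for the genes that passed the filter in PFC and in NAc, for ZT13 against ZT1 in Ctrl and in CJL mice and for CJL against Ctrl at each time. In PFC the Ctrl time effects of Bdnf, Ntrk2 and Vgf lie at -0.57, -0.48 and -0.37, and in NAc the intervals of Ngfr and Nrn1 are wide.

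Set side by side, the PFC comparisons shared their libraries. Among the PFC groups, the means of Bdnf, Ntrk2 and Vgf were all highest at ZT1 in Ctrl mice, and only that of Vgf was apart from the next group. None of these genes was called between the times in CJL mice. The ZT1 Ctrl group, which also stood apart in sequencing quality, enters both their time effect and their CJL effect. Counting all members tested in PFC, 0 of 5 were called between the times under CJL, where 0.0335% of all genes were and 1 member (Nrn1) and 13.7% of all genes did not overlap, 0 of 5 for CJL at ZT13, and 0 of 5 for the interaction, where 0.0805% were. At an unadjusted P under 0.05 the counts were 0, 2 and 3 of 5, beside 6.88%, 12.6% and 18.4% of all genes in limma. In NAc 0 of 6 were called in each of the 5 comparisons within the region, in which 0 of 15573 genes were called by limma. At an unadjusted P under 0.05 the members were 2 of 6 for time in Ctrl mice (Ngfr and Nrn1), 1 for time in CJL mice (Ntrk3), 1 for the interaction (Nrn1) and 0 for CJL at either time. The shares of all genes were 10.1% and 5.21% for time, 6.47% for the interaction, and 7.71% and 8.32% for CJL at ZT1 and ZT13.

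Between the regions, Ngfr is given as levels with no test, since it passed the filter only where it is high. Its mean was 7.09 FPKM in NAc and 0.295 in PFC of Ctrl mice, and 5.45 and 0.433 FPKM in CJL mice, with every NAc library above every PFC library. Of the other 5 members tested, 4 were called in Ctrl mice, where 50.4% of all 16072 genes were. In CJL mice, where 56.4% of all genes were called, the same 4 were, and 3 with a replicate term, under which Ntrk2 was not called (limma adjusted p = 0.05003). Bdnf was lower in NAc by -1.95 and -1.79 (SE 0.181 each, limma adjusted p = 3.77e-08 and 8.53e-08), and Nrn1 by -2.39 and -2.30 (SE 0.233 each, limma adjusted p = 6.81e-08 and 8.56e-08), both without overlap. Libraries of the regions did not overlap for 22.3% of all genes in Ctrl and 34.5% in CJL mice.

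Vgf and Ntrk2 differed less between the regions, and their libraries overlapped. Vgf was lower in NAc by -0.55 in Ctrl and -0.33 in CJL mice (limma adjusted p = 3.56e-05 and 0.00385). Ntrk2 was higher by 0.31 and 0.18 (limma adjusted p = 0.000873 and 0.0289), while the median of all genes was itself 0.11 and 0.14 higher in NAc. With median-of-ratios scaling, which moves that median by -0.11 and -0.15, the Ntrk2 difference was 0.20 in Ctrl mice (adjusted p = 0.0233) and 0.03 in CJL mice, where it was no longer called (limma adjusted p = 0.698). The CJL call of Ntrk2 was also lost when any 1 of 7 of the 12 CJL libraries was left out, with limma adjusted p up to 0.0706. Ntrk3 did not differ beyond its spread, with 95% intervals of -0.13 to 0.16 and -0.08 to 0.21.

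Differences between the regions in their time effect or CJL effect are read without Ngfr, which passed the filter only through NAc. For time in Ctrl mice no member was called, where 0.56% of all genes were called and 16.8% had an unadjusted P under 0.05. Bdnf gave 1.00, Ntrk2 0.46 and Nrn1 1.12 for NAc minus PFC on the log2 scale (limma adjusted p = 0.17, 0.113 and 0.228). Each had an unadjusted P under 0.05, which Ntrk3 and Vgf did not reach. Without PFC ZT13 Ctrl replicate 1 the value of Ntrk2 was 0.60 and passed (limma adjusted p = 0.00744). In CJL mice none of these members was called or reached an unadjusted P under 0.05, beside 0% and 3.35% of all genes. For the CJL effect none of these members differed between the regions at ZT1 or at ZT13 after adjustment, and 0 of 16072 genes were called at either time. At ZT1 none of them reached an unadjusted P under 0.05, where 10.8% of all genes did. At ZT13 Ntrk2 did (-0.37, limma adjusted p = 0.296), as did 12.6% of all genes. Without PFC ZT13 Ctrl replicate 1 the ZT13 difference of Ntrk2 was -0.52 and was called (limma adjusted p = 0.042). Both Ntrk2 values without that library rest on PFC ZT13 Ctrl replicates 2 and 3, those with low astrocyte sums.

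Other genes of the pathway were read from 6 lists, first for time of day in PFC of Ctrl mice, where the 3 members fell. The 5 members tested had a median log2 fold change of -0.37 beside 0.06 over all genes. Of 4 other receptors tested in the list of neurotrophins and receptors, 2 fell and 0 rose, with a median of -0.38. These were Sorcs3 (-0.62, limma adjusted p = 0.0067) and Sorcs1 (-0.58, adjusted p = 0.00745), sorting receptors related to sortilin that bind pro-neurotrophins or guide Trk receptors. Of 10 genes of pro-protein processing 1 fell, the prohormone convertase Pcsk1, which cuts secreted precursors such as VGF, at -0.68 (limma adjusted p = 0.025).

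Granins, the neighbours of Vgf in dense-core vesicles, split. Of 6 tested, Scg3 fell by 0.29 on the log2 scale (limma adjusted p = 0.0172), and Chga rose by 0.53 (adjusted p = 0.0186) and Scg5 by 0.33 (adjusted p = 0.0214), with a median of 0.06. Of 42 Trk adaptors and signalling genes 3 rose and 5 fell, with a median of -0.04. The 4 with the smallest P were Rps6ka2, a kinase below ERK (-0.40, limma adjusted p = 0.0103), the neuronal adaptor Shc3 (-1.22, adjusted p = 0.0157), Map2k5, a kinase of the ERK5 branch (0.30, adjusted p = 0.0182), and Kidins220, a scaffold of Trk receptors (-0.29, adjusted p = 0.0252). Of 12 p75 partners 0 were called and 4 had an unadjusted P under 0.05 in limma, as had 30.6% of all genes.

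Activity-regulated genes, with which Bdnf, Vgf and Nrn1 are often grouped, moved both ways in this comparison. Of 27 tested, 6 rose and 4 fell, with a median of 0.16. Egr3 (-1.44, limma adjusted p = 4.96e-05) and Homer1 (-0.90, adjusted p = 0.00922), a transcription factor and a postsynaptic scaffold, fell as Bdnf did, whereas Dusp5 (0.76, adjusted p = 0.00462), an ERK phosphatase, and Junb (1.21, adjusted p = 0.0118), an immediate early transcription factor, rose.

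**Figure D4:**
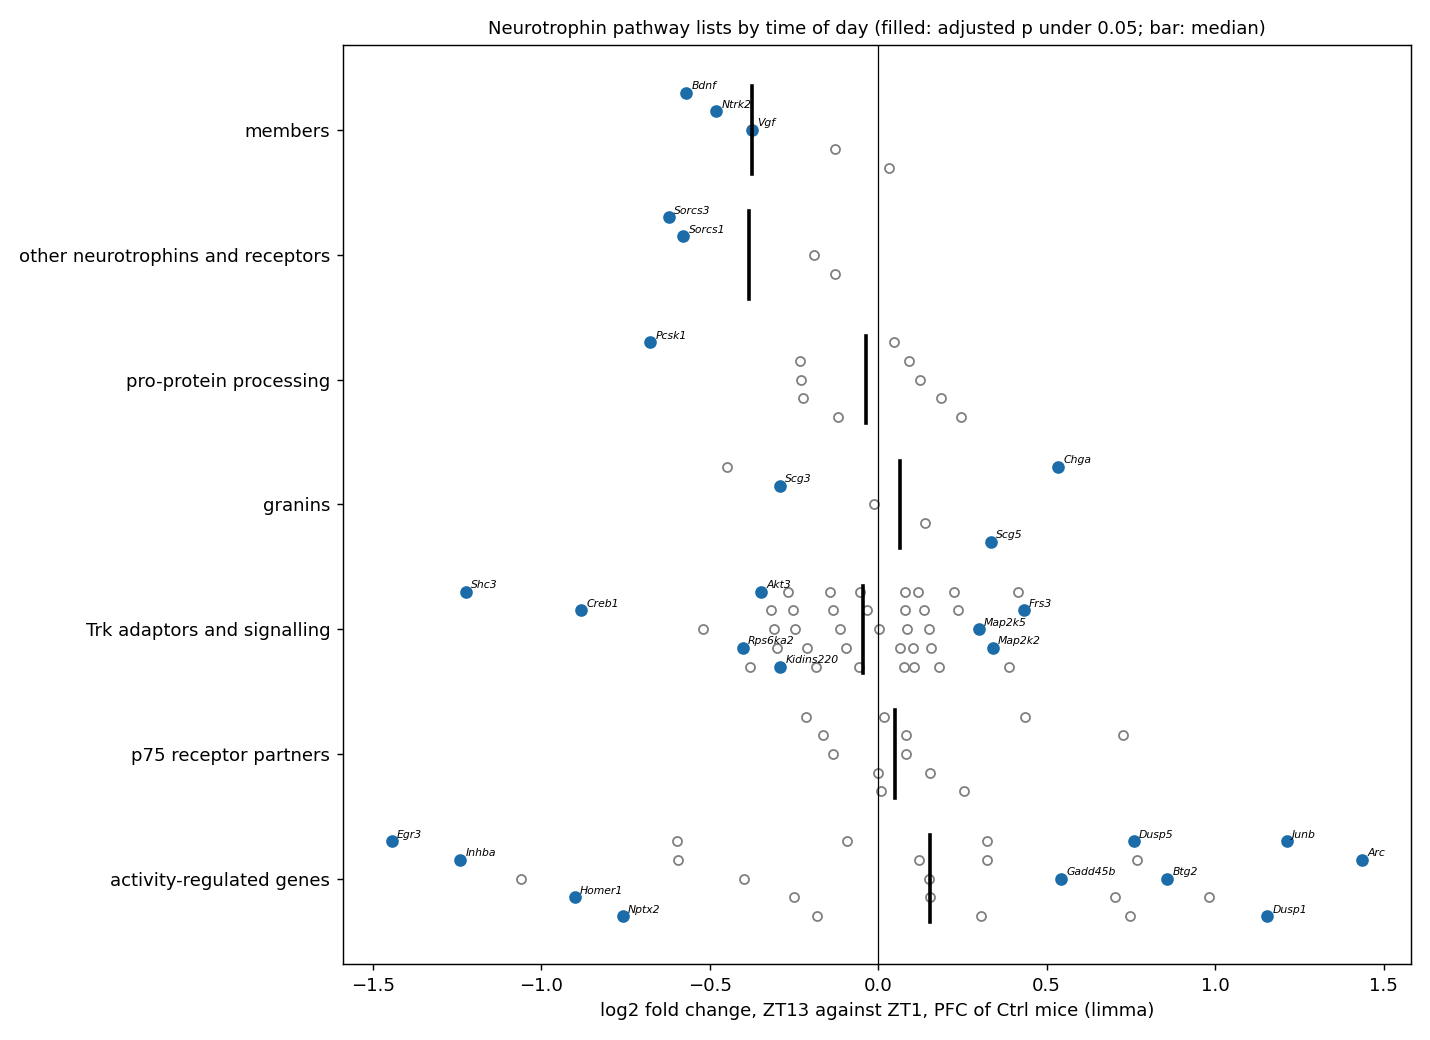
Log2 fold change of ZT13 against ZT1 in PFC of Ctrl mice (horizontal axis, limma) for every tested gene of the 7 genes followed here and of the 6 pathway lists; filled and named points have an adjusted p under 0.05 and bars are medians. The 3 named members lie left of zero, while granins, Trk signalling genes and activity-regulated genes have named points on both sides.

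For CJL at ZT1 in PFC, where Vgf was lower, the lists gave few calls. Of the activity-regulated genes Egr3 was lower (-0.996, limma adjusted p = 0.00351) and Dusp5 higher (0.48, adjusted p = 0.0401), and 0 genes of the other 5 lists were called. Egr3 was also the only list gene called for CJL at ZT13 in PFC (0.77, limma adjusted p = 0.0481) and for the PFC interaction (1.76, adjusted p = 0.000324). For the difference between the regions in the Ctrl time effect Sort1 (0.48), Sorcs1 (0.56) and Shc3 (1.45) were called (limma adjusted p = 0.0452, 0.0452 and 0.0388).

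Between the regions, the receptors and processing genes around the members split. In Ctrl mice, where 50.4% of all genes were called in either direction, 2 of 4 other receptors were higher in NAc and 2 lower. Sorcs1 differed by 0.64 and Sorcs2, a sorting receptor of the same family, by 0.53 on the log2 scale (limma adjusted p = 5.56e-08 and 2.93e-05), whereas Sort1, which encodes sortilin, differed by -0.69 and Sorcs3 by -0.26 (adjusted p = 3.14e-09 and 0.00364). Of 11 pro-protein processing genes 0 were higher and 3 lower in NAc, and of 27 activity-regulated genes 1 was higher and 17 lower, with a median of -0.58 beside 0.11 over all genes.

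By likeness over the 12 libraries of a region, the genes nearest to each member were found by Pearson r of log2 values, among 11310 genes in PFC and 11682 in NAc, with a mean of at least 2 FPKM. They are given as a description with no test, since the points share libraries and the highest of many values were taken. In PFC Bdnf was nearest to Enc1 (0.99), Homer1 (0.98) and Nrp1 (0.97), Ntrk2 to Stox2 (0.99), Prpf8 (0.98) and Camk1d (0.97), and Vgf to Rtn4rl2 (0.92), Celf5 (0.91) and Gsg1l (0.91). Homer1 in PFC had group means of 87.1 in ZT1 Ctrl, 64.8 in ZT1 CJL, 66.9 in ZT13 CJL and 46.7 FPKM in ZT13 Ctrl, the order of Bdnf but for the middle groups. In NAc Ngfr was nearest to Elfn1 (0.93), Ufsp1 (0.93) and Trmt2a (0.90), and Nrn1 to Faah (0.95), Nptxr (0.93) and Serpini1 (0.92).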

How the data were processed

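Prefrontal cortex and nucleus accumbens of 12 mice gave 24 poly(A) RNA-seq libraries, 3 per group. Per the labels and methods, the authors filtered reads, checked quality with FastQC 0.11.9 and mapped to mm10 by HISAT2, while StringTie stands in the submitters' processing notes. As deposited by the authors, the values are FPKM of 48526 genes per library, already scaled for depth and transcript length. The number of fragments behind each value is not given with them. Whether counting used strand is not given in the sources used here. Antisense genes overlap Bdnf, Ntrk2, Ntrk3 and Nrn1 in GENCODE M21, and their reads may not be separable. Also deposited were 8 tables of the authors' own fold changes and p-values (from DESeq2), which were not used.

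log2(FPKM + 0.1) of genes at 1 FPKM or more in at least 3 libraries of a fit was fitted with limma 3.58.1 (R 4.3.3, eBayes with a trend), with 1 mean per group, over 12 libraries of a region (14914 genes in PFC, 15573 in NAc) or all 24 (16072 genes). The 16 comparisons were two-sided and adjusted by Benjamini-Hochberg over all genes. The test was checked on simulated data. Alternatives were no filter, the pseudocount raised to 1, quantile normalization, median-of-ratios scaling, the groups of a comparison alone, a replicate term, each library left out, and 7 libraries with neighbouring-tissue markers left out. All 7 members are named, of each list up to 4 called genes with the smallest P, and the 3 genes most like a member; Egr3 and Dusp5 at ZT1 fall under the same rule. Promoter windows are RefSeq's (GRCm38.p6) and were given for 4 of 7 members. Figures were drawn with Python 3.11.15 and matplotlib 3.10.9. Members and lists were chosen with earlier results of these data known. The labels do not say which libraries share a mouse. Some list genes are not reported here and entered no list count or marker sum.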

Additional observations from a re-analysis of the deposited data

How the results depend on the processing

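Of 256 alternatives of the number of members called, 18 moved it by over 1.5 times or to or from 0, and no called fold change reversed. Among 59 alternatives the sign of a fold change changed while uncalled. For CJL at ZT1 in PFC the count of 1 went to 0 with no filter on low FPKM, with the groups alone, with the replicate block and without the libraries with high neighbouring-tissue markers, and ranged from 0 to 1 when a library was left out. For CJL at ZT13 in PFC the count of 0 became 1 (Ntrk2) without the high-marker libraries and ranged from 0 to 1. For time in PFC of Ctrl mice the count of 3 became 1 with the groups alone and ranged from 0 to 3, where leaving out replicate 2 of ZT13 Ctrl gave 0 and replicate 2 of ZT1 Ctrl gave 1. For the PFC interaction the count of 0 became 1 without the high-marker libraries and ranged from 0 to 1. It also ranged from 0 to 1 for the difference between the regions in the Ctrl time effect and in the CJL effect at ZT13. The cause of these changes was not tested.

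Replicate numbers are shared between groups. The correlation of same-numbered libraries' deviations was -0.19 to 0.10 over 24 pairs within a region and 0.02 to 0.13, all positive, over 12 pairs between regions. Libraries of the regions with different numbers gave -0.15 to 0.11. Whether the numbers pair libraries of a mouse is not settled by these values or by the labels, so the main fit of the regions stayed unpaired. With the replicate block the count of calls changed for CJL at ZT1 in PFC, from 1 to 0, and for NAc against PFC in CJL mice, from 5 to 4 with Ngfr counted, where Ntrk2 lost its call. The study gives read totals per library, but no counts per gene were at hand. How far depth limits these values was not worked out.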
